A study of Mus musculus with 9 samples.

Results

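Glomeruli of 5 control mice aged 30 to 35 days are described here as a baseline: how abundant each transcript was, which cell types the preparation held, and which genes differed most from one control animal to the next. The controls are 5 of the 9 samples of a study of mice that lack Cosmc in podocytes, and all 16867 genes of the deposited table were ranked by their mean and by their spread over these 5 libraries. Control and Cosmc KO animals are not compared as groups, and the 4 Cosmc KO libraries are used only to see whether a pattern found among the controls occurs in other animals.

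All 9 animals were C57BL/6 males. Control 1 (35 days), control 4 (30 days) and control 5 (30 days) carried Podo-Cre and a wild-type Cosmc allele on the X chromosome (Podo-Cre; Cosmc Y/+). Control 2 (34 days) carried the floxed allele without Cre (Cosmc Y/flox), and control 3 (31 days) had a wild-type allele without Cre (Cosmc Y/+). The 4 Cosmc KO animals carried Podo-Cre together with the floxed allele (Podo-Cre; Cosmc Y/flox) and were 35, 34, 31 and 30 days old. The controls are thus of 3 genotypes and 4 ages with at most 2 animals of any combination, and neither the promoter nor the construct of Podo-Cre is given in the sources used here. Glomeruli were isolated by perfusing the kidney with magnetic beads, and poly(A)-selected RNA was sequenced. Between 31500000 and 41800000 reads per control (rounded) were assigned to the listed genes.

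A glomerulus is a tuft of capillaries that filters the blood. Its fenestrated endothelium rests on a basement membrane, podocytes wrap the outer side of that membrane with interdigitating foot processes joined by slit diaphragms, and mesangial cells hold the loops together in the centre. Bead perfusion lodges beads in the capillaries so that a magnet can pull the tufts out of a digested kidney, and pieces of the surrounding tubules, arterioles and interstitial cells come along to a degree that varies between preparations.

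Values are normalized read counts, that is the gene counts divided by a size factor for each library. To compare genes with each other, the values were also divided by the length of the merged exons and scaled to a sum of 1000000 (TPM). A length was found for 16662 genes, and the 205 without one held 0.459% of all normalized reads. The lowest mean over all 9 libraries in the table was 8.73, so a gene that is not listed is not shown to be absent.

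The expression was spread over many genes. Of all normalized reads, 50% came from 1063 genes and 90% from 6078 genes. The 10, 100 and 1000 highest genes held 6.03%, 18.8% and 48.8%. On the TPM scale 520 genes reached 50% of the total. At 1000 TPM or more there were 77 genes, which held 29.3% of the TPM, and 1713 genes between 100 and 1000 TPM held a further 40.8%, so that 10.7% of genes with a length lay at 100 TPM or more. The largest class, 7743 genes at 10 to 100 TPM, held 27.6%. Another 5151 genes lay at 1 to 10 TPM and 1978 below 1 TPM. Transcripts of the mitochondrial genome took 2.67%, 5.59%, 3.35%, 3.24% and 2.69% of the normalized reads in controls 1 to 5, so control 2 was the highest.

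Igfbp7, a secreted binding protein of insulin-like growth factors that is abundant in endothelium, had the highest level among named nuclear genes, at 9666 ± 968 TPM (SD, n = 5 here and below). Podxl (podocalyxin, the sialomucin that coats podocyte foot processes) was also among the highest, at 6471 ± 1227 TPM. Translation and cytoskeleton genes of all cells stood beside these, with Eef1a1 at 4828 TPM, Tmsb4x at 4205 TPM and Actb at 2789 TPM. The matricellular protein Sparc reached 3871 TPM, the podocyte semaphorin Sema3g 3072 TPM, Igfbp5 2625 TPM, and Plat, the tissue plasminogen activator of glomerular endothelium, 2184 TPM.

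Some of the top 20 named genes belong to tubules. Gpx3, the secreted glutathione peroxidase made mainly by the proximal tubule, averaged 3680 ± 1981 TPM, Klk1 (the kallikrein of the connecting tubule) 3346 ± 1269 TPM and S100g (calbindin-D9k of the distal tubule) 2724 ± 1117 TPM. Their SDs were large relative to their means, while that of Eef1a1 was 395 TPM. A few values at the top are uncertain. Gm23935 (48062 TPM) is annotated as a miRNA with an exon length of 57 bases, Mir6236 (3240 TPM) and Gm42418 (5489 TPM) resemble ribosomal RNA in sequence, and H2-Q6 (2317 TPM) has near-identical relatives among the class I histocompatibility genes.

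**Figure D1:**
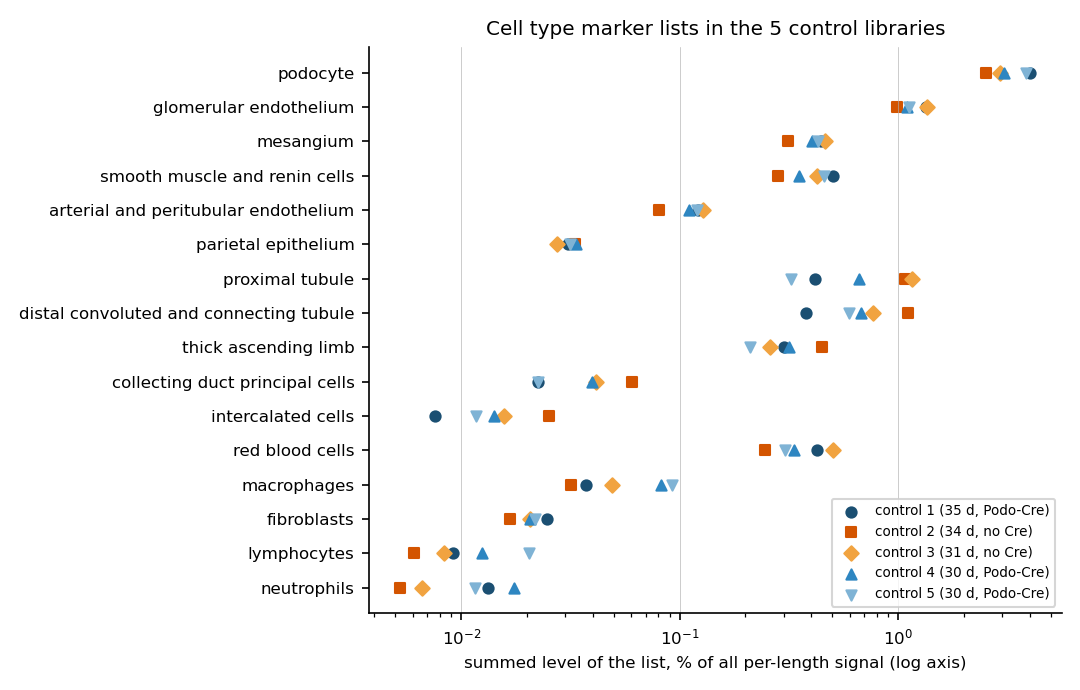
Summed level of 16 cell type marker lists in the 5 control libraries, as a percentage of all per-length signal on a log axis; each point is 1 library. The podocyte list lies between 2.54% and 4.04%, and the proximal tubule list ranges more widely, from 0.323% to 1.15%.

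All 43 podocyte genes on the list were measured, and 35 of them lay at 100 TPM or more, against 10.7% of all genes with a length. Together they held 3.28% of the TPM (range 2.54 to 4.04% over the controls). Podxl had 544549, 396450, 361075, 397485 and 448339 normalized reads in controls 1 to 5. Nphs1 (nephrin, the adhesion protein that spans the slit diaphragm) had 91482, 68765, 62738, 67382 and 79497. Both were highest in control 1, followed by control 5. On the list 33 of the 43 genes were highest in control 1, where 31.0% of all genes above a mean of 50 were, and 9 in control 5, where 21.8% were. The transcription factor Wt1, on which podocyte identity depends, had 33297, 20258, 20621, 20426 and 25014 normalized reads, and it too was highest in control 1 and then control 5. In bulk tissue, fewer cells of a type and less RNA per cell cannot be told apart.

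Genes of the other resident cells of the tuft varied no more than podocyte genes. The median SD of log2(value + 1) over the controls was 0.24 for podocyte genes, 0.19 for glomerular endothelial and 0.17 for mesangial genes. Over all genes with a mean of at least 50 it was 0.16, so none of the 3 lists varied less than the typical gene. The 32 glomerular endothelial genes held 1.18% of the TPM (0.988 to 1.36%). Ehd3, a membrane-trafficking ATPase that in the kidney marks the glomerular endothelium, had 129019, 113480, 134798, 106246 and 92663 normalized reads in controls 1 to 5 (1448 ± 224 TPM). The vascular growth factor receptor Kdr ranged from 48806 in control 2 to 62272 in control 3. The 16 mesangial genes held 0.410% (0.313 to 0.461%). Itga8, the integrin subunit that marks mesangial cells, had 30850, 27778, 28696, 26608 and 23817 normalized reads (308 ± 30.3 TPM). Its highest and lowest libraries differed by a factor of 1.30, compared with 1.45 for Ehd3 and 5.12 for the proximal tubule phosphate transporter Slc34a1.

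Vessel wall genes were present with them. Smooth muscle and renin cell genes held 0.404% of the TPM (0.283 to 0.506%). Ren1 (renin, made by the granular cells of the afferent arteriole) had 26961, 9651, 25380, 15157 and 32456 normalized reads, so it was lowest in control 2 and highest in control 5. The contractile genes Acta2 and Myh11 were both highest in control 1, at 18380 and 16491, with 10728 to 13219 and 8688 to 11483 in the other 4. Genes of the capsule-lining parietal cells held 0.0313%, and none of the 15 genes on their list reached 100 TPM.

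Matrix genes of both the mature and the earlier networks were measured. Of the collagen IV chains, Col4a3 and Col4a4 of the mature podocyte-made network had 798 and 402 TPM, Col4a1 and Col4a2 of the network made by endothelium and mesangium 913 and 716 TPM, and Col4a6 9.91 TPM. Lamb2, the beta chain of adult glomerular laminin, had 381 TPM, compared with 63.9 TPM for Lamb1, the chain that precedes it in development and remains in the mesangium, and 1.04 TPM for Lama1. The nephron progenitor factors Six2 and Cited1 were not listed.

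Tubular RNA was present in each control, in differing amounts. Proximal tubule genes held 0.727% of the TPM (0.323 to 1.15%), thick ascending limb genes 0.307% (0.211 to 0.446%), distal convoluted and connecting tubule genes 0.706% (0.380 to 1.11%), principal cell genes 0.0373% and intercalated cell genes 0.0149%. Umod (uromodulin of the thick ascending limb) had 54162, 80903, 36420, 47663 and 23351 normalized reads, and Klk1 had 23858, 78751, 45652, 41674 and 33448. Both were highest in control 2. All 13 thick ascending limb genes, all 8 distal convoluted and connecting tubule genes and all 8 intercalated cell genes above a mean of 50 were highest in control 2, where 23.5% of all genes above that mean were highest.

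Blood and immune cell genes were also present. The haemoglobin and other red cell genes held 0.363%, macrophage genes 0.0586% and lymphocyte genes 0.0113% of the TPM. Each share depends on the number and level of the genes chosen for its list. Shares of different lists therefore do not compare numbers of cells. None of the 5 adipocyte or 6 striated muscle markers was listed. Of 6 urothelial markers Upk1a and Upk1b were listed, both below 1 TPM, and of 4 adrenal markers only Star, at 5.35 TPM. Of the 15 genes on the kidney injury list, 4 lay at 100 TPM or more (Spp1 at 896 TPM, Anxa2 at 506 TPM, Clu at 306 TPM and S100a6 at 102 TPM), and 5 lay below 1 TPM. The tubular injury markers Havcr1 (Kim-1) and Lcn2 had 0.57 and 1.29 TPM. As a check of sex, the Y-linked genes Ddx3y, Eif2s3y, Uty and Kdm5d were present in all 5 libraries and Xist was not listed, as in males.

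Most genes varied little between the animals. Spread was measured as the SD of log2(value + 1) over the 5 controls, for the 13722 genes with a mean of at least 50. The median SD was 0.16 on this log2 scale, the median coefficient of variation 11.2% and, after counting error was subtracted, 10.3%. In edgeR the recovered reads of 14035 genes gave a common biological coefficient of variation of 0.192. Without control 3, whose reads are the least surely recovered, it was 0.206 over 14044 genes. Rank correlation between controls over the 13722 genes ran from a Spearman rho of 0.974 (controls 2 and 5) to 0.992 (controls 4 and 5). It is given as a description since genes are not independent replicates.

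Among genes with a mean of at least 1000, those with the smallest SD included Kif2a and Rrbp1. In 526 of the 13722 genes the spread was no larger than counting error. The smallest SDs can thus arise by sampling, and no class of steady genes was tested. Kif2a, a kinesin that depolymerizes microtubules, had 1138, 1149, 1135, 1151 and 1140 normalized reads in controls 1 to 5, and Rrbp1, a ribosome receptor of the endoplasmic reticulum, had 12087, 12071, 12257, 12201 and 12116. In neither gene did a library stand apart. The 10 genes with the smallest SD also included Eif1ad, Trappc3, Fam173a, Crbn, Ube2l3, Pmpca and Rprd1b. As a class, the 80 cytosolic ribosomal protein genes above the mean of 50 had a median SD of 0.08.

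An SD of at least 1 was found for 185 of the 13722 genes, which is 1.35%, and an SD of at least 2 for 5. Just inside the limit of 1 lay Slc22a12, Proc and Flrt3, and just outside it Gjb1, Slc4a4 and Slc6a18, and the SDs of all 6 were 1.00 when rounded. The count depends on control 5: it was 98 without that library and between 176 and 261 without any other. By level, the limit was passed by 49 of the 1095 genes with a mean of 50 to 100, by 94 of 5195 genes between 100 and 1000, by 36 of the 6701 genes in the next class and by 6 of the 731 most abundant.

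**Figure D2:**
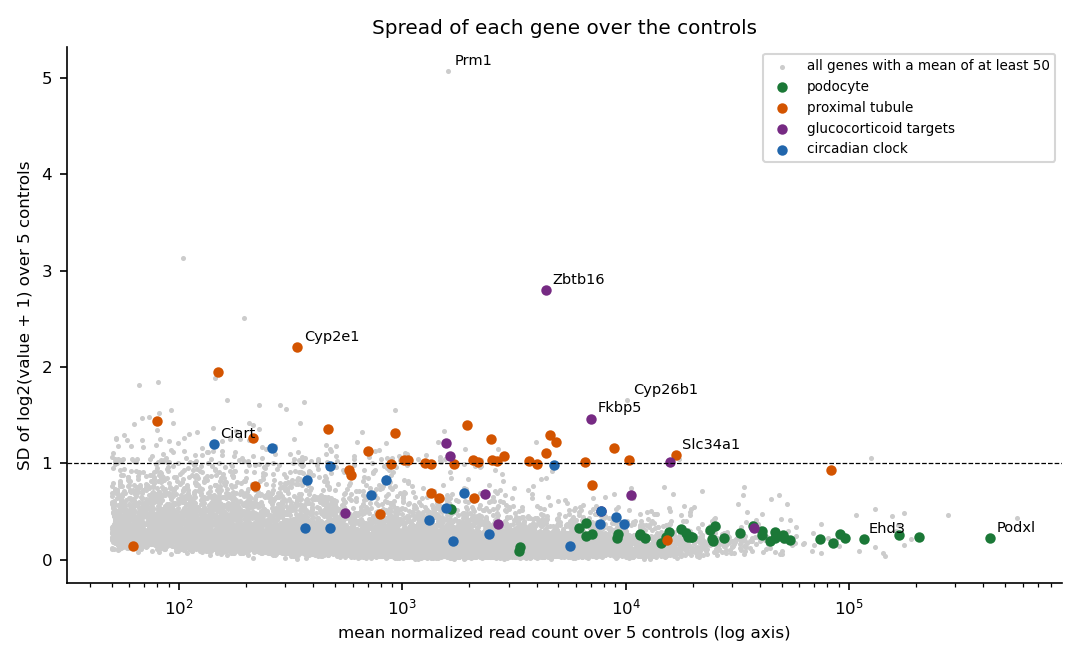
Spread of each gene over the 5 controls (SD of log2(value + 1)) against its mean normalized read count on a log axis, for the 13722 genes with a mean of at least 50; coloured points are members of 4 gene lists and the dashed line marks an SD of 1. Podocyte genes lie at 0.10 to 0.53, while 25 of 40 proximal tubule genes lie at or above the line and Prm1 stands at 5.07.

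Proximal tubule genes made up the largest listed share of the variable genes. Of the 42 listed, 40 had a mean of at least 50, and 25 of these had an SD of at least 1, where 1.35% of all genes did. Without control 5 the number was 7, and without control 4 it was 32. Their median SD was 1.03. Slc34a1, which takes up phosphate at the brush border, had 7217, 28237, 28074, 14606 and 5518 normalized reads in controls 1 to 5. Gpx3 had 47882, 144604, 122399, 69626 and 30486, and Lrp2 (megalin, the endocytic receptor of this segment) had 1613, 6107, 6073, 3373 and 1373. In each, controls 2 and 3 were high, control 4 was in between, and controls 1 and 5 were low.

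Some proximal tubule genes had wider ranges. Kap, the androgen-regulated kidney protein, had 2358, 7748, 7242, 4577 and 910 normalized reads, and the organic anion transporter Slc22a6 had 447, 1577, 1416, 1032 and 181. The cytochrome Cyp2e1 had 102, 618, 679, 282 and 16.2. Slc7a13, a cystine transporter subunit of the last proximal segment, had 92.0, 176, 235, 232 and 8.63. All 4 were lowest in control 5, and the first 3 had the same order of controls 5, 1 and 4 below controls 2 and 3. Cyp4b1 did not share it, with 14530, 14402, 19105, 12936 and 15435 normalized reads and an SD of 0.21, and Cyp7b1 had an SD of 0.15.

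The order of libraries recurred beyond the list. Of the 185 variable genes, 136 (73.5%) had both controls 2 and 3 above controls 1, 4 and 5, a pattern found in 11.0% of all genes above the mean of 50, and 106 (57.3%, against 3.67% of all) followed the full order of the proximal tubule genes, lowest in control 5, then control 1, then control 4. On the proximal tubule list 37 of 40 had controls 2 and 3 on top. The reverse, controls 2 and 3 below the other 3, was seen in 3 of the 185 (1.62%) and in 11.4% of all genes. Controls 2 and 3 were also the 2 animals without Cre. The proximal tubule score (the mean log2(value + 1) of the list) was 9.37, 11.02, 11.07, 10.34 and 8.82 in controls 1 to 5, and 9.61, 12.25, 12.24 and 11.33 in the Cosmc KO libraries, all of which carried Cre. Among the controls, the absence of Cre and the amount of tubule RNA in the preparation cannot be told apart.

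Where tubule genes were high, podocyte genes tended to be low. The podocyte score was 14.88, 14.41, 14.40, 14.50 and 14.73 in controls 1 to 5, so the libraries with the lowest proximal tubule scores (5 and 1) had the highest podocyte scores. The range of the podocyte score corresponded to a factor of 1.40 and that of the proximal tubule score to a factor of 4.75. None of the 43 podocyte genes had an SD of 1 or more, and R3hdml, a secreted peptidase inhibitor-like protein, had the largest at 0.53. With 5 libraries no correlation between the scores is given.

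**Figure D3:**
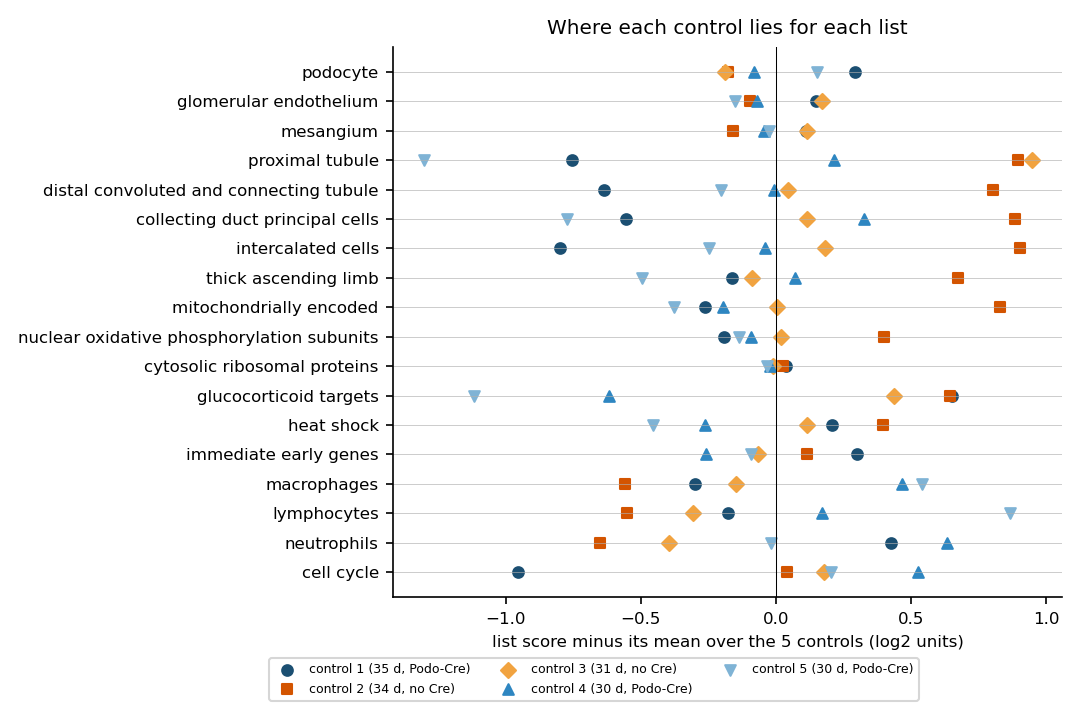
Score of 18 gene lists in each control, given as the mean log2(value + 1) of the members minus the mean of that score over the 5 controls; each point is 1 library. Proximal tubule scores spread over more than 2 log2 units, glucocorticoid targets are low in controls 4 and 5, cell cycle genes are low in control 1, and ribosomal protein genes lie together.

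Mitochondrial genes set control 2 apart. The mitochondrially encoded mt-Co1 (a subunit of cytochrome oxidase) had 443262, 904625, 539193, 506703 and 427662 normalized reads, and all 12 mitochondrially encoded genes above the mean of 50 were highest in control 2. The nuclear genes of oxidative phosphorylation behaved alike at a smaller scale: 76 of 79 were highest in control 2, where 23.5% of all genes were. Atp5b, a subunit of ATP synthase, had 49655, 77115, 58326, 54251 and 51824. Control 2 was also highest for the distal tubule lists, and the part of tubule RNA in the mitochondrial values was not tested. Among the mitochondrially encoded genes, mt-Co2, mt-Co3 and mt-Atp6 were listed at 18.9 to 21.0 TPM although mt-Co1 had 29565 TPM. How the counting treated reads that match several places is not given in the sources used here, and these low values are uncertain.

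The gene with the largest spread was Prm1 (chr16:10796326-10805839, GRCm38), which encodes protamine 1, a protein that packs DNA in sperm. It had 3283, 5.47, 2.00, 1892 and 2851 normalized reads in controls 1 to 5, and 1078, 424, 683 and 711 in the Cosmc KO libraries. The 3 Cre-carrying controls and the 4 Cre-carrying Cosmc KO libraries all had 424 or more, and the 2 Cre-free controls had 5.47 or fewer. No other gene came near its SD of 5.07. Its mean of 240 TPM ranked 610 among the genes with a length. Some transgene cassettes contain protamine 1 sequence. Whether Podo-Cre does is not given in the sources used here, and the part of the transgene in these reads was not tested.

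Genes that respond to glucocorticoids formed the next pattern. Glucocorticoids are adrenal steroids that bind a nuclear receptor, and the receptor in turn activates genes through palindromic response elements in DNA. Zbtb16 (chr9:48654297-48836222), a zinc finger factor and a sensitive target of the receptor, had 9967, 5339, 6015, 688 and 96.0 normalized reads in controls 1 to 5, and 7735, 4420, 5265 and 355 in the Cosmc KO libraries. Fkbp5 (chr17:28399094-28517527), a co-chaperone that restrains the same receptor, had 15568, 8336, 7636, 2234 and 1330 in the controls and 13016, 7402, 8036 and 2251 in the Cosmc KO libraries. In both genes controls 4 and 5 and Cosmc KO 4, the 3 libraries from animals aged 30 days, lay below all 6 older animals.

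Other members were alike but with smaller ranges. Klf15, a metabolic transcription factor, had 2741, 2551, 1406, 828 and 364 normalized reads in controls 1 to 5. Tsc22d3 (GILZ, an anti-inflammatory leucine zipper protein) had 29529, 21884, 13495, 8855 and 5072, and Klf9 had 15029, 13086, 12105, 7745 and 4825. Of the 11 listed targets above the mean of 50, 5 had an SD of at least 1 (Zbtb16, Fkbp5, Klf15, Tsc22d3 and Pdk4), where 1.35% of all genes did. Without control 5 it was 3. The list's score was 11.95, 11.94, 11.74, 10.68 and 10.18 in controls 1 to 5 and 12.24, 12.29, 12.34 and 11.04 in the Cosmc KO libraries. In 8 of the 11 genes controls 4 and 5 were both below controls 1, 2 and 3, which was so for 13.9% of all genes. Lcn2 did not reach the mean of 50, and the metallothionein Mt1 had an SD of 0.37, with control 2 highest and control 1 lowest.

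Sgk1, a kinase that regulates sodium channels, varied least of the 11, with 44854, 38530, 45018, 34123 and 25914 normalized reads and an SD of 0.33. Its promoter is shown because it was the only one of the 10 targets found in RefSeq whose 250 bases before the start contained the full palindrome of the receptor's response element (the half-sites AGAACA and TGTTCT, 3 bases apart), searched on both strands. The palindrome occurred in 3 of all 32851 windows of this length (0.00913%). This share is of single windows, while a gene was counted if any of its windows matched. Capitals mark the match, which begins 189 bases before the annotated start. The window is chr10:21993640-21993889 on the plus strand of GRCm38, from RefSeq, and reads 5′ to 3′:
Sgk1: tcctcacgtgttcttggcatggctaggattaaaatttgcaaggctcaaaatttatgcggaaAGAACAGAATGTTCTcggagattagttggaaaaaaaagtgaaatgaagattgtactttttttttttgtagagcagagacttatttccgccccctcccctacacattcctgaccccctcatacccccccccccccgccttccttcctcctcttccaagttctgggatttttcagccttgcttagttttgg
A match is a description of letters only. No match within this window says nothing about elements elsewhere, and Fkbp5 and Zbtb16 had none here.

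**Figure D4:**
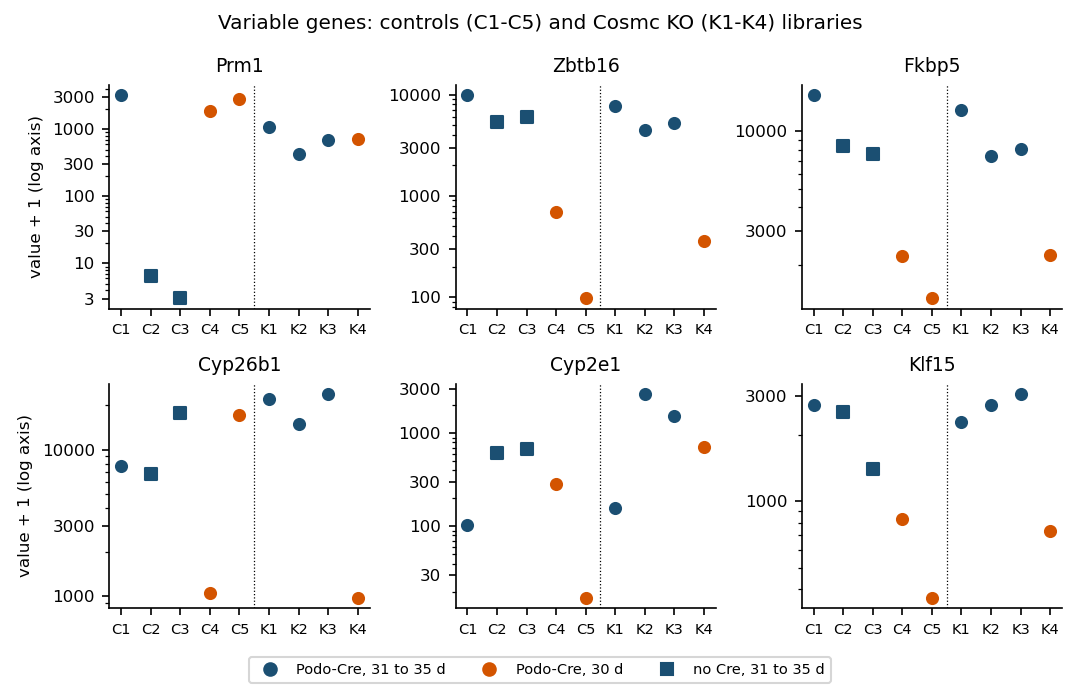
Normalized read count plus 1, on a log axis, of 6 variable genes in the 5 controls (C1 to C5) and the 4 Cosmc KO libraries (K1 to K4); squares are animals without Cre and orange marks animals aged 30 days. Prm1 is near 0 only in the 2 squares, and Zbtb16, Fkbp5 and Klf15 are lowest in the 3 orange libraries.

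Heat shock genes were low in the same libraries. Hspa8, the constitutive chaperone of the cytosol, had 66729, 68317, 62667, 38436 and 27850 normalized reads in controls 1 to 5, and 78244, 73378, 71396 and 35867 in the Cosmc KO libraries. Hsph1, its nucleotide exchange partner, had 4792, 5719, 4264, 2559 and 1814, against 4916, 5074, 6120 and 1802. Among all genes above the mean of 50, 399 (2.91%) were higher in each of the 6 older libraries than in each of the 3 aged 30 days, and these included 6 of 10 heat shock genes and 6 of 11 glucocorticoid targets. The split by age was looked at after these values had been seen. The 3 libraries may share more than an age, such as a day of preparation, which is not given in the sources used here, so that age and preparation cannot be told apart.

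Most macrophage and lymphocyte genes were higher in controls 4 and 5. Lyz2 (lysozyme of macrophages and other myeloid cells) had 2025, 2324, 3032, 6508 and 7023 normalized reads in controls 1 to 5. The T and NK cell protease Gzma had 286, 216, 213, 374 and 649. Of the macrophage genes above the mean of 50, 11 of 14 were higher in controls 4 and 5 than in the other 3, and so were 11 of 14 lymphocyte genes, compared with 15.0% of all genes. All 14 lymphocyte genes were highest in control 5, where 21.8% of all genes were. Other immune lists did not share this to the same degree: 4 of 7 MHC class II genes and 1 of 6 neutrophil genes had controls 4 and 5 above the other 3. The neutrophil score was 7.13, 6.05, 6.31, 7.34 and 6.68 in controls 1 to 5. Over all 9 libraries, 447 genes (3.26%) were lower in each of the 6 older animals than in each of the 3 aged 30 days, and 6 lymphocyte genes and 2 macrophage genes were among them. The tissue macrophage receptor Mrc1 did not share this, with 4388, 4214, 4742, 3790 and 4119. The monocyte chemokine receptor Ccr2 (206, 156, 312, 964 and 645) and F13a1 (53.9, 69.7, 65.1, 376 and 215), a transglutaminase of monocytes and macrophages, were among the 185 variable genes.

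Cyp26b1 (chr6:84571414-84593908), the enzyme that breaks down retinoic acid, varied in a way of its own. It had 7727, 6849, 17815, 1053 and 17124 normalized reads in controls 1 to 5, and 22247, 14975, 23942 and 973 in the Cosmc KO libraries. Control 4 was the lowest control, and Cosmc KO 4, also aged 30 days, was the lowest of its group, but control 5 of the same age was among the highest. Its mean was 159 TPM and its SD over the controls 1.66.

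The remaining named genes with the largest spread were mainly tubular or metabolic. Cyp2j13 (68.7, 301, 62.1, 91.5 and 0) and the carboxylesterase Ces1f (98.4, 430, 272, 175 and 4.31) were lowest in control 5, and the SD of 3.14 for Cyp2j13 rests on that library's value of 0. Cyp24a1 and Cyp27b1, which degrade and form active vitamin D in the proximal tubule, were both highest in control 3, at 880 and 278, with 67.7 to 321 and 18.0 to 73.6 in the other controls. Slc10a6, a carrier of sulfated steroids (692, 547, 393, 134 and 44.2), was lowest in control 5 too, but highest in control 1, as were Zbtb16, Fkbp5 and Klf15. Over all 9 libraries it was lower in each of the 3 aged 30 days than in each of the 6 older ones. The transporter Slc16a14 (178, 639, 136, 160 and 27.0) was also lowest in control 5. The same holds for Guca2b (uroguanylin, a peptide that promotes salt excretion), the trehalose-cleaving enzyme Treh of the brush border, the antiplasmin gene Serpinf2, Car3, Ces1g, Acnat2, Ugt2b38, Ugt3a1, Nat8f6 and Slc22a30, with 7.55 to 128 normalized reads there except for Ces1g at 4.31, and each of these was highest in control 2 or 3. Ces1f, Ces1g, Cyp2j13, Ugt2b38 and Nat8f6 have close relatives with which reads could be shared, so their values are uncertain. Siglech, a marker of plasmacytoid dendritic cells, had 30.7, 34.2, 322, 93.6 and 340. The urea transporter Slc14a2 of the inner medulla was lowest in control 3, at 32.0, and the stomach-type secreted protein gene Gkn3 was lowest in control 2, at 9.56, with 31.0 to 108 in the others.

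Fasting-responsive genes had another order. Cyp4a14, a fatty acid hydroxylase under PPAR alpha, had 71.9, 137, 648, 198 and 128 normalized reads in controls 1 to 5. Control 3 was the highest for 8 of the 11 measured genes of this list, compared with 12.0% of all genes, and 3 of the 11 had an SD of at least 1. Feeding state is not given in the sources used here.

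Cell cycle genes were low in control 1. Mki67, the proliferation antigen, had 708, 1578, 1787, 2507 and 1779 normalized reads in controls 1 to 5, and Top2a, the topoisomerase of dividing cells, had 658, 1525, 1685, 2205 and 1851. All 23 cell cycle genes were lowest in control 1, where 20.7% of all genes were lowest, and 19 were highest in control 4, where 11.6% were. The score was 8.18 in control 1 and 9.18 to 9.66 in the other controls. Cosmc KO 1, of the same age as control 1, had 9.46, which was the lowest of its group, with 9.75 to 9.98 in the other Cosmc KO libraries. Cdkn1a (p21), an inhibitor of cyclin-dependent kinases, was highest in control 1, with 9442, 4756, 2918, 1322 and 1320, and over all 9 libraries it was also among the genes that were higher in each of the 6 older animals than in each of the 3 aged 30 days.

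Several circadian clock genes were at their extremes in control 1. The clock is a feedback loop in which Arntl (BMAL1) and its partners Clock or Npas2 bind E-boxes and switch on the Per, Cry, Dbp and Ciart genes, whose products act back on the loop, so the genes of its 2 arms peak at opposite times of day. Npas2 had 681, 258, 164, 86.2 and 114 normalized reads in controls 1 to 5, and Arntl had 1723, 951, 636, 398 and 511. Both were highest in control 1, then in control 2. The D-box factor Dbp had 1523, 2622, 5937, 7292 and 6629, and Ciart, a repressor of the loop, had 29.6, 87.4, 234, 195 and 169, so these were lowest in control 1, then in control 2.

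Nfil3, a repressor that competes with Dbp, was on the side of Arntl with 760.5, 436, 246, 267 and 171 normalized reads. Bhlhe41, a repressor driven through E-boxes, was on the side of Dbp with 160, 243, 613, 729 and 626. Per3 had 335, 542, 770, 1098 and 878. Of the 19 clock genes, 7 were highest in control 1, which is near the share of all genes highest there (31.0%). In control 1, 8 were lowest, where 20.7% of all genes were. Another 7 were highest in control 4, where 11.6% of all genes were. Npas2 and Ciart had an SD of at least 1 (1.16 and 1.20). The number was 0 without control 1, 4 without control 2, 3 or 5, and 3 without control 4. Cosmc KO 1, aged 35 days like control 1, did not share the pattern: its Npas2 was 120, within the range of controls 3 to 5, and its Ciart of 149 and Dbp of 4575 lay between those of control 2 and those of controls 3 to 5. Over all 9 libraries, 1 of the 19 clock genes, Npas2, was lower in each of the 3 aged 30 days than in each of the 6 older ones. Another 3, Dbp and Per3 among them, were higher there, while 2.91% and 3.26% of all genes were lower and higher. Cosmc KO 4, aged 30 days, had the lowest Npas2 (60.6) and the highest Dbp (11703) of all libraries. The hour at which each animal was killed is not given in the sources used here.

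**Figure D5:**
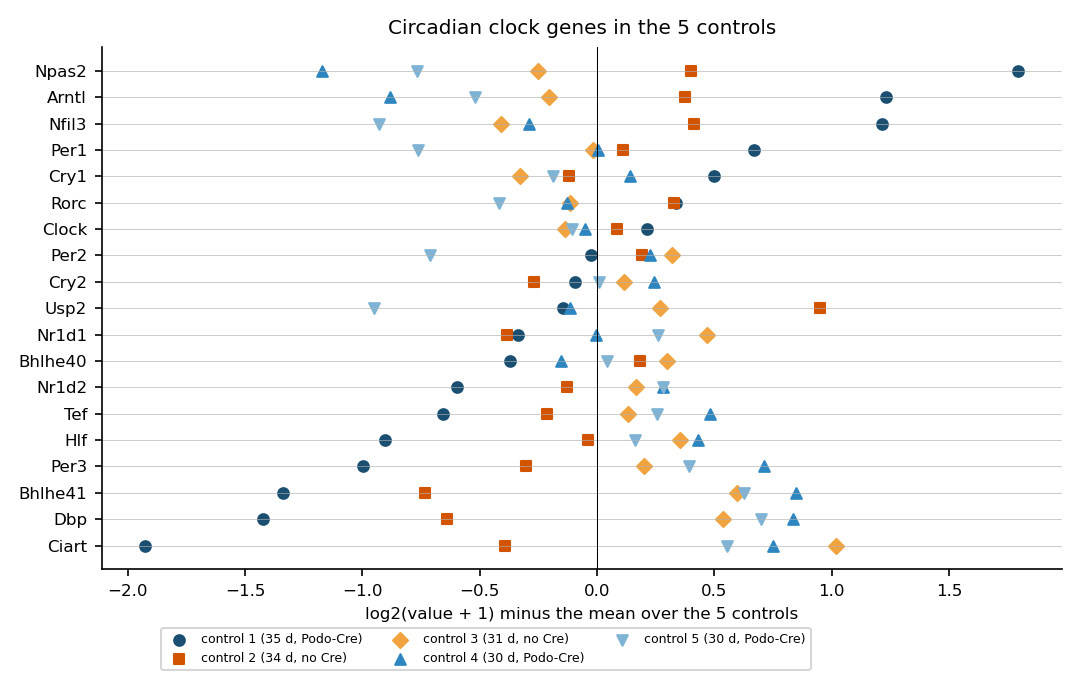
Log2(value + 1) of the 19 circadian clock genes in each control minus the gene's mean over the 5 controls, with genes ordered by control 1. Control 1 lies farthest to the right for Npas2, Arntl and Nfil3 and farthest to the left for Ciart, Dbp and Bhlhe41, with control 2 next to it on the same side in these 6 genes.

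The promoters of both arms are shown because the motifs they carry belong to opposite phases of the loop. Of 16 clock genes found in RefSeq, 5 had an E-box (CACGTG, a palindrome) in the 250 bases before the start (Per1, Cry1, Tef, Ciart and Bhlhe41), compared with 6.02% of all 32851 windows. The E-box was not particular to this list, since 4 of the 10 glucocorticoid targets had it (Fkbp5, Sgk1, Per1 and Klf15). That of Sgk1 is left unmarked in the window shown above. The ROR element TAGGTCA, to which the Nr1d1 and Nr1d2 repressors and ROR activators bind, was in 1 (Nfil3), compared with 2.23%, and the D-box TTATGTAA was in 1 (Per3), compared with 0.819%. A gene was counted if any of its windows matched, while the shares are of single windows, so the counts and shares are not like for like. Both strands were searched, and the motifs do not overlap in the windows below. All 3 windows are from RefSeq (GRCm38), on the minus strand, 5′ to 3′, with the motif in capitals. For Ciart (chr3:95882229-95882478) the 3 E-boxes begin 116, 58 and 44 bases before the start, for Bhlhe41 (chr6:145865421-145865670) the E-box begins 153 bases before it, and for Nfil3 (chr13:52981040-52981289) the element, read here from the other strand, begins 12 bases before it:
Ciart: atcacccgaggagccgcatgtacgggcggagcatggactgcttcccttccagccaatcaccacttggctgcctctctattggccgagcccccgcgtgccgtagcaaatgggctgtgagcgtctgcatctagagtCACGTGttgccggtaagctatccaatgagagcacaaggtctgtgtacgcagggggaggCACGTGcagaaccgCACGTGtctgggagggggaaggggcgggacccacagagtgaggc
Bhlhe41: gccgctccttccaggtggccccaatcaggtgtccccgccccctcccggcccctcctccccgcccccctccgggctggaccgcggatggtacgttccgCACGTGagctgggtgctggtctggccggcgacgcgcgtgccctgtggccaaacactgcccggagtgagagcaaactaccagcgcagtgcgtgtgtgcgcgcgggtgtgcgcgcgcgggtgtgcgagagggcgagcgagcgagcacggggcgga
Nfil3: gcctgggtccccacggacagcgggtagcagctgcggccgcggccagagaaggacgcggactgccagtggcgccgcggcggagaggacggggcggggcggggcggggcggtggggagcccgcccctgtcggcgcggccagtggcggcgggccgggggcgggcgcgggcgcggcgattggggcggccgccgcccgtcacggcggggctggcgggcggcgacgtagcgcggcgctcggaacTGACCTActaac
Ciart, Bhlhe41 and Tef, with E-boxes, were lowest in control 1, but Per1 and Cry1, also with an E-box, were highest there, and so was Nfil3 with the ROR element. The motifs are a description of these windows and were not tested against the values.

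Seen over all genes above the mean of 50, the first principal component of the 5 controls held 48.6% of the variance and had its ends at control 5 (loading -0.65) and control 2 (loading 0.65). The second component held 29.4% and set control 1 against the other 4, and the third held 13.4% and set control 3 apart. The libraries lowest and highest for the 185 variable genes were control 5 (lowest in 132, 71.4%) and controls 2 and 3 (highest in 90 and 67, 48.6% and 36.2%). Over all genes above the mean of 50 each library was lowest in 13.8% to 26.3%, control 5 in 21.9%. Controls 2 and 3 were highest in 23.5% and 12.0% of these. A single control lay far from the other 4, by a gap above 0.71 of the range, in 726 genes (5.29%), most often control 1 (262 genes) or control 2 (254 genes), and in 3 of the 185 variable genes, each time control 5.

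Many of these genes also varied among the Cosmc KO animals, which the ranking had not used. Of the 185 variable genes, 149 (80.5%) also had an SD of at least 1 among the 4 Cosmc KO libraries, where 3.96% of all 13722 genes did, and these 149 were 27.4% of the genes variable there. The median SD of the 185 genes in the Cosmc KO libraries was 1.41, and that of all genes 0.23. Prm1 and Ciart did not recur, with SDs of 0.55 and 0.38 among the Cosmc KO libraries, and the proximal tubule list did, with a median of 1.41 there. Of the 200 genes with the largest SD in each group, 105 (52.5%) were shared. This recurrence cannot be taken as independent of the controls. Each Cosmc KO animal has the number and the age of a control, and the proximal tubule scores given above were lowest in number 1, next in number 4 and highest in numbers 2 and 3 among these 4 pairs in both groups. Whether such animals shared a litter or a day of preparation is not given in the sources used here.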

How the data were processed

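Glomerular RNA of 5 control and 4 Cosmc KO mice was sequenced as paired reads. The authors used STAR 2.5.2b, featureCounts, Subread 1.5.2, DESeq2 and the GRCm38 build, per the submitters' processing notes. The annotation release, the strand setting, and the rule for reads that match several places are not given in the sources used here. The deposited values are a normalized signal, gene counts divided by 1 size factor per library. Dividing each library by its smallest step gave whole reads for 100% of values within 0.01 of a read. In control 3 the step was near 1, so its reads are less surely recovered. The depth was 31500000 to 41800000 reads per control (rounded), and without counting error the median coefficient of variation was 10.3%, compared with 11.2% with it.

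From these values, the level per length (TPM) used merged exons of GENCODE M21, with 268 genes matched by synonym. Spread was the SD of log2(value + 1) over the controls for genes with a mean of at least 50, and a list score was the mean log2(value + 1) of its members. Dispersion came from edgeR 4.0.16 on recovered reads. Python 3.11.15, pandas 2.3.3, numpy 2.4.6, scipy 1.17.1 and R 4.3.3 were used. The ranking by spread was tested on simulated data. The lowest chi-square per degree of freedom between 2 controls was 25.6, far above sampling noise, so each was counted as its own sample.

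The controls differ in genotype and age. Control and Cosmc KO animals were not compared as groups, and no test was made. The split of all 9 libraries by age was looked at after the values had been seen and is a description. The genes named are Ehd3, Itga8 and Slc34a1, the 20 highest named nuclear genes, the 25 genes with the largest and the 10 with the smallest SD (among means of at least 1000 for the smallest), and the 3 highest members and the most variable member of each of 43 lists. Other genes are examples chosen after their values were seen. A few genes that the rule names are not reported here. The members and lists were chosen with earlier results of these data known. Alternatives were another scaling, pseudocounts of 0.5 and 4, no filter or a mean of at least 500, and leaving out each control.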

Additional observations from a re-analysis of the deposited data

Results flagged for a closer look

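In 15 named values 1 control lay far from the other 4, with a gap of more than 0.71 of the whole range (Dixon's 95% value for 5 samples). Of 41 list scores 4 were so marked, and of 193 named genes 11, while chance marks about 1 in 20 groups and 5.29% of all genes above the mean of 50 were marked.

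Control 1 was the distant library for 5 of these. The smooth muscle and renin cell score (ratio 0.796) was 12.67 in control 1 and 12.07 to 12.19 in the others. The collagen gene Col1a2 (0.835) had 31153 normalized reads in control 1 and 22323 to 23586 in the others, the annexin gene Anxa2 (0.839) 27651 and 21226 to 22150, and the tight junction gene Tjp1 (0.741) 39894 and 28140 to 30801. The mitotic cyclin Ccnb1 (0.740) had 104 in control 1 and 303 to 442 in the others.

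Control 2 was the distant library for 6. The arterial and peritubular endothelium score (0.844) was 10.71 in control 2 and 11.19 to 11.28 in the others, and the ephrin Efnb2 (0.752) of arterial endothelium had 19087 and 22262 to 23418. Star, the cholesterol carrier of steroid-making cells, had 221 in control 2 and 269 to 285 in the others. Its ratio of 0.763 is also that of the adrenal cortex score (0.763), since no other gene of that list was listed. The cytochrome oxidase subunit Cox8a (0.805) had 14884 in control 2 and 9487 to 10360 in the others, and Wfdc15b (0.872) 3999 and 1644 to 1843.

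Control 5 was lowest for Cyp2j13 (0.726), where its value was 0, and for Ces1g (0.713), at 4.31 and 47.6 to 118 in the others. Control 4 was highest for Upk1b (0.740), at 45.2 and 15.0 to 20.1. Control 3 was lowest for the nephron progenitor score (0.734), at 8.22 and 8.46 to 8.55.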

How the results depend on the processing

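No paired analysis was possible because no groups were compared. Of 196 summary values recomputed under the alternatives 174 stayed within their limits and 22 moved. The limit was the SD over the 5 controls for cell type shares and named genes, and a factor of 1.5 for all other values. All 1764 values of single named genes stayed within their SD. Leaving out 1 control cannot move a mean by as much as that SD. For shares and named genes the outcome of leaving out a control was thus fixed in advance and shows no robustness. Genes needed for 50% of the per-length level numbered 520, 1065 without division by length and 835 among nuclear protein-coding genes (chosen after seeing the data). In the same order, the podocyte share was 3.28%, 4.94% and 3.98%, the endothelial share 1.18%, 1.75% and 1.44%, and the mesangial share 0.410%, 0.486% and 0.497%. Genes with an SD of at least 1 numbered 185, 394 with no filter, 63 at a mean of at least 500, and 32 by an equal limit on the linear coefficient of variation (0.785). Leaving out 1 control gave 98 (without control 5) to 261 (without control 4), and for proximal tubule genes 7 to 32 instead of 25 with the same libraries left out. Glucocorticoid targets gave 3 (without control 5) to 5. Clock genes gave 2, 4 when scaled to the total, 0 at a mean of at least 500, and 0 (without control 1) to 4 when a control was left out. Controls 2 and 3 were on top in 73.5% of the variable genes and in 47.2% with no filter, and in 58.2% to 83.1% when a control was left out. The share of the 200 most variable genes common to both groups was 52.5%, and 23.5% with no filter. Podocyte genes with an SD of at least 1 numbered 0 under every alternative run. At a mean below 50, counting error limits what the spread can show.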
